A study of Mus musculus with 2 samples.

Results

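Gland and other simple epithelial cells of the mouse palatal gingiva were examined in 2 single-cell RNA-seq libraries, one for each of 2 Toll-like receptor (TLR) ligands. A barcode was counted as a member when it had at least 800 detected genes, at least 10 unique molecular identifiers (UMIs, which count RNA molecules) of the simple keratins Krt8 and Krt18 together, more of these than of the basal keratins Krt5 and Krt14, fewer than 5 Odam UMIs and at most 1 UMI of Pecam1 and Cdh5. Of 6165 cells with at least 800 genes, 53 were members. They were 19 of 4888 cells in the CpG ODN library, which is 0.389% (exact Clopper-Pearson 95% interval 0.234% to 0.606%), and 34 of 1277 cells in the LPS library, which is 2.66% (1.85% to 3.70%). The members were selected on these measured values, so their keratins and the low Odam, Pecam1 and Cdh5 counts are a description.

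Both libraries came from female C57BL/6 mice (C57BL/6 J in the study's methods) of 8 to 12 weeks without any genetic change. The palatal gingiva received 3 µl of ligand at 1 µg/ml under an oral appliance for 1 h and was collected on day 4. CpG ODN, a synthetic unmethylated DNA oligonucleotide, is a TLR9 ligand, and the LPS was that of Porphyromonas gingivalis, given as a TLR2 and TLR4 ligand. Each library pooled the tissue of 4 mice after collagenase and trypsin digestion. With 1 library per ligand no test between ligands could be made. The ligand and the pool of mice, dissection and digestion behind each library cannot be told apart, and an untreated control was not analysed here. All intervals below are exact 95% intervals that cover counting error only.

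Simple epithelial cells line glands and ducts, where they are joined by tight junctions and secrete into a lumen. The palate holds minor salivary glands whose mucous acini make the gel of saliva from heavily glycosylated mucins, while serous cells and ducts add enzymes, antimicrobial proteins and ions. Simple keratins are also made by sensory cells embedded in the stratified oral epithelium, namely taste cells and Merkel cells. Some of these cells meet bacteria directly, and glands in general add defence proteins to the fluid that covers the gingiva.

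The deposited counts summed to 72173148 UMIs over 6219 barcodes in the CpG ODN library and 38656738 UMIs over 2016 barcodes in the LPS library. The members had a median of 15410 UMIs in the CpG ODN library (range 3312 to 44800) and 20707.5 in the LPS library (5386 to 132902), beside medians of 11077.5 and 22680 over all cells with at least 800 genes. No member barcode occurred in both libraries, although 5 barcodes were shared over all deposited cells. No doublet caller was run. The label was checked against its markers: the epithelial adhesion gene Epcam had a UMI in all 53 members, and the water channel Aqp5 had one in 39. Aqp5 had 0 UMIs in a set of 9 cells described below, so the gland part of the label did not hold for them.

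Few cells lay near the limits of the selection. The lowest Krt8 plus Krt18 count of a member was 12 UMIs in the CpG ODN library and 15 in the LPS library. Just outside, 0 CpG ODN cells and 2 LPS cells had 7 to 9 such UMIs with all other limits met. A further 16 CpG ODN cells and 10 LPS cells reached 10 UMIs but had no more of them than of Krt5 and Krt14. In the CpG ODN members Krt5 plus Krt14 reached at most 7 UMIs, whereas in the LPS members they reached 54, in a cell with 59 of Krt8 plus Krt18. The smallest excess was 1 UMI, in another LPS member with 17 against 16. The Odam limit left out 1 LPS cell, with 21 Odam UMIs.

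Clustering divided the 53 cells into 6 clusters, of which 2 shared their leading genes and were joined, giving 5 kinds. Genes of the host response lists were held out of the clustering. Because the clusters were drawn from the same expression values, the leading genes of a kind are a description and were not tested. The largest kind, with 20 cells, is called mucous acinar-like. The others are called by leading or frequent genes: Dcpp and Wfdc18 cells (8), Reg3g and Krt15 cells (8), Reg3g and Bpifa1 cells (8) and Espn and Prox1 cells (9).

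**Figure D1:**
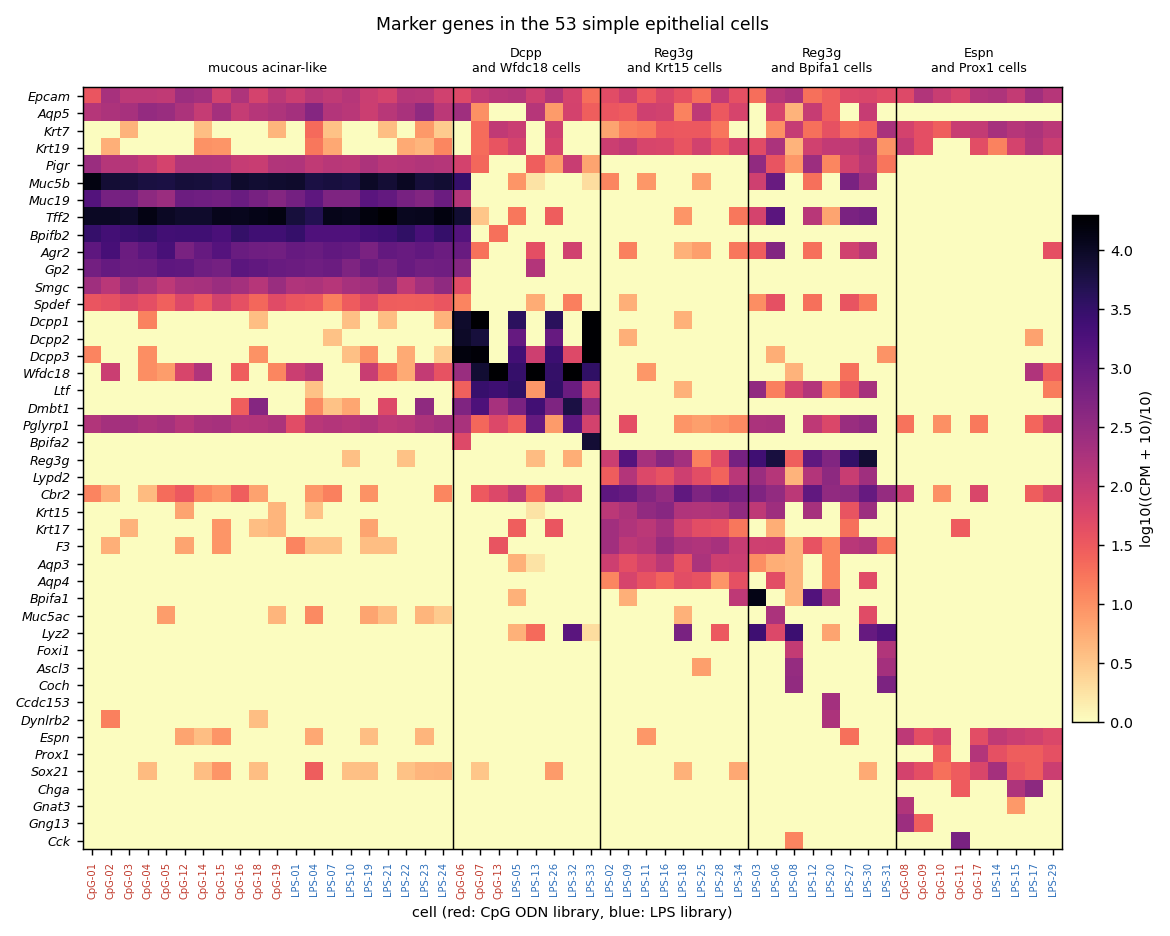
Level of marker genes (rows) in each of the 53 cells (columns), as log10((CPM + 10)/10), where CPM is UMIs per 1000000 UMIs of the cell; vertical lines part the 5 kinds and label colours give the library. The mucous genes Muc5b, Tff2 and Bpifb2 run through all 20 mucous acinar-like cells, while Reg3g, Lypd2 and Cbr2 are high in most of the 16 cells of the 2 Reg3g kinds, all with blue labels.

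The mucous acinar-like cells came from both libraries, 11 from the CpG ODN library and 9 from the LPS library. These were 57.9% of the CpG ODN members (33.5% to 79.7%) and 26.5% of the LPS members (12.9% to 44.4%), and the intervals overlapped. As a share of all cells with at least 800 genes they were 0.225% (0.112% to 0.402%) and 0.705% (0.323% to 1.33%), again with overlapping intervals. Their median depth was 24081 UMIs in the CpG ODN and 37340 in the LPS library. The Dcpp and Wfdc18 cells were 3 of the CpG ODN and 5 of the LPS members, and the Espn and Prox1 cells 5 and 4. Both Reg3g kinds were found in the LPS library only, with 8 cells each. Together they were 47.1% of the LPS members (29.8% to 64.9%) and 0 of 19 CpG ODN members (0% to 17.6%). These are shares of clusters, not of cells chosen by Reg3g. Of the 8 Reg3g and Bpifa1 cells 7 had a Reg3g UMI, and 3 carried ionocyte or cilium markers, described below.

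**Figure D2:**
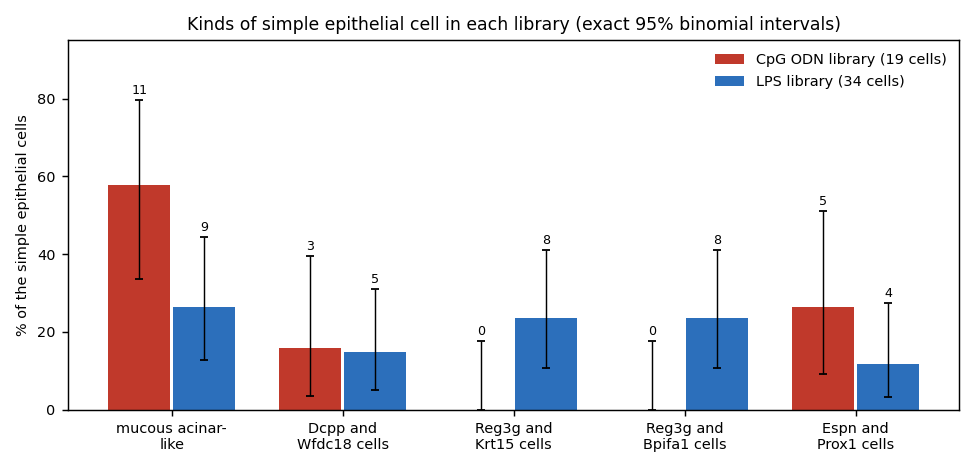
Share of each library's simple epithelial cells (vertical axis, %) that fell in each kind, with exact 95% binomial intervals and the number of cells above each bar. The CpG ODN library (red, 19 cells) held no cell of either Reg3g kind, where the LPS library (blue, 34 cells) held 8 of each.

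The mucous acinar-like cells carried 9 of the 12 mucous acinar markers, namely Muc5b, Muc19, Agr2, Spdef, Creb3l1, Galnt12, Smgc, Tff2 and Bpifb2. Muc5b (chr7:141839070-141873084, plus strand, GRCm38) encodes the main gel-forming mucin of saliva and Tff2 a small trefoil peptide secreted with mucins. In the CpG ODN library Muc5b made up 5.83% to 14.2% of a cell's UMIs with a median of 7.18%, and in the LPS library 5.88% to 10.4% with a median of 7.34%. Tff2 made up 8.67% to 14.4% (median 10.3%) and 4.65% to 21.2% (median 11.6%). The cells of the 2 libraries overlapped for both genes, with the wider range of Muc5b in the CpG ODN and of Tff2 in the LPS library.

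A set of 9 genes of the secretory cargo (Muc5b, Muc19, Tff2, Bpifb2, Sbpl, Gp2, Agr2, Smgc and Wfdc12) together took 26.2% ± 4.59 of the UMIs of a CpG ODN mucous cell (SD over 11 cells) and 26.0% ± 5.71 of an LPS mucous cell (SD over 9 cells). Leading over the other members were also Olfm4, an olfactomedin found in secretory and progenitor epithelium, with 667 CPM against 0 and a UMI in 13 of the 20 cells, and Spink4, a protease inhibitor of goblet cells, with 371 against 1.34 CPM. Among the cargo genes, Sbpl ranged from 0% to 9.13% of the UMIs in the CpG ODN cells and from 0% to 1.87% in the LPS cells.

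The mucin genes had also reached droplets that should lack them. Lymphocytes, taken as cells with at least 5 UMIs of T and B cell genes and at most 1 of Krt5 and Krt14, had a Muc5b UMI in 4.55% of 418 CpG ODN cells and 3.66% of 82 LPS cells, at median depths of 2904 and 3451.5 UMIs. Among members the shares were 63.2% and 58.8%, but at greater depth. Counts of at least 5 UMIs separated more clearly: outside the members, Muc5b reached this count in 4 of 4869 CpG ODN and 8 of 1243 LPS cells. Tff2, Bpifb2 and Agr2 reached it in 1, 0 and 0 of these CpG ODN cells, and each in 7 of the LPS cells. Whether these LPS cells were mucous cells below the keratin limit was not tested. With a limit of 5 Krt8 and Krt18 UMIs, the mucous kind had 11 LPS cells, 2 of them no members here. The 9 LPS mucous cells may therefore be incomplete.

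The Dcpp and Wfdc18 cells as a kind carried 7 of 16 serous, 9 of 12 duct and 7 of 12 mucous acinar markers, and were left without a cell type name. Duct markers were not particular to them, since the mucous acinar-like cells had 8 of 12. The Dcpp genes (demilune cell and parotid proteins) encode secreted salivary proteins, and lie next to each other on chromosome 17 with near-identical sequences, so that the split of reads between Dcpp1, Dcpp2 and Dcpp3 is uncertain. Dcpp3 had 5407, 7777 and 0 UMIs in the CpG ODN cells and 572, 104, 370, 12 and 35333 in the LPS cells. Wfdc18, a whey acidic protein domain gene, had 95, 3509 and 1348 UMIs in the CpG ODN cells and 775, 54601, 452, 6684 and 3611 in the LPS cells. The cells thus differed widely within each library, and the highest and the lowest Dcpp3 counts of the LPS cells fell on either side of those of the CpG ODN cells with a count.

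Within this kind the cells split by cargo. Cell LPS-33 (cells are numbered within their library) had 107027 UMIs, with 35333 of Dcpp3, 23602 of Dcpp1 and 7981 of Bpifa2, the parotid secretory protein. Cell LPS-13 had 132902 UMIs, the most of any member, with 54601 of Wfdc18, 3046 of Dmbt1, a scavenger protein of saliva that binds bacteria, and no Dcpp1. Cell CpG-06 carried both Dcpp1 (2956 UMIs) and mucous genes (1040 Muc5b and 2639 Tff2 UMIs). Whether this barcode held 2 cells was not tested. Ltf, which encodes the iron-binding defence protein lactoferrin, had a UMI in all 8 cells, with 9 to 1315 UMIs.

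Wfdc18 RNA was also found more widely in the LPS library, where 22.0% of the lymphocytes had a UMI of it, against 0.718% in the CpG ODN library. Low Wfdc18 counts in other LPS cells were therefore not read as expression.

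The Reg3g and Krt15 cells, all 8 from the LPS library, had between 2 and 343 UMIs of Reg3g with a median of 41.5. Reg3g (chr6:78466269-78468872, minus strand, GRCm38) encodes a secreted lectin that kills Gram-positive bacteria at mucosal surfaces. Every one of these cells also had Krt15 (21 to 88 UMIs) and Krt17 (3 to 41), keratins of basal and appendage epithelium, with Aqp3 (9 to 29), Aqp4 (1 to 15), Aqp5 (3 to 18) and F3, the tissue factor that starts clotting (18 to 59). Pigr, the receptor that carries antibody across glandular epithelium, had 0 UMIs in each of the 8, as did the mucin gene Muc19. Genes of detoxification were high, with 7689 CPM of the carbonyl reductase Cbr2 and 5556 CPM of the cytochrome P450 Cyp2f2. Cyp2f2, Krt15 and Cbr2 were not particular to them. At least 5 UMIs of each were seen in 303, 487 and 102 LPS cells outside the members. Nor were Krt17 and Aqp3, with 1134 and 844 CPM here against 1853 and 730 CPM over the non-members of both libraries. Krt15 also had 56 and 53 UMIs in LPS-06 and LPS-30 of the Reg3g and Bpifa1 cells. Of the fixed markers, 3 of 8 respiratory secretory, 2 of 9 olfactory and nasal gland (Cyp2a5 and Sec14l3) and 5 of 12 duct markers were detected in this kind.

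The Reg3g and Bpifa1 cells differed in their share of mitochondrial UMIs, a common sign of RNA quality. It was 47.0% in LPS-12, 30.9% in LPS-31, 24.3% in LPS-27 and 17.99% in LPS-03, and 6.93% to 13.0% in the other 4, beside at most 16.2% in any other member. The part of RNA quality in this kind was not tested. These cells held the highest Reg3g counts of all members, with 1587, 1408, 259, 182, 88, 60, 7 and 0 UMIs. Bpifa1 encodes an antimicrobial surfactant protein known from the airway and nasal epithelium. It was unevenly spread: cell LPS-03 had 1405 UMIs, 2 further cells had 84 and 29, and 1 had 1. Cell LPS-06 had 41 UMIs of Muc5ac, the gel-forming mucin of surface goblet cells, together with 208 of Muc5b and 294 of Tff2, and cell LPS-30 had 10 of Muc5ac. Lyz2, which encodes lysozyme, had more than 100 UMIs in 4 of the 8 cells, and was the 1 of 6 myeloid markers detected in this kind. Krt17 had at most 1 UMI per cell here, in contrast to the 3 to 41 UMIs of the Reg3g and Krt15 cells. Over the kind 5 of 8 respiratory secretory and 2 of 9 olfactory and nasal gland markers (Cyp2a5 and Sec14l3) were detected. So were 7 of 12 mucous acinar and 7 of 12 duct markers.

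Of these 8 cells, 3 carried a further set of markers. Over the kind 7 of 8 ionocyte markers were detected. Cells LPS-08 and LPS-31 had 26 and 19 UMIs of Foxi1 and 79 and 26 of Ascl3, transcription factors of ionocytes, which are rare cells that acidify and salt-balance secretions. The same cells had 32 and 5 UMIs of the chloride channel gene Cftr, 71 and 16 of Stap1 and 83 and 70 of Coch. Cell LPS-20 had 39 UMIs of Ccdc153, 31 of Dynlrb2, 12 of Rsph1 and 3 of Foxj1, which serve the motile cilium. No cell outside the members had 5 UMIs of Foxi1 or Ascl3 in either library. For Ccdc153 there was 1 such cell, in the CpG ODN library.

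Reg3g was looked for outside the selection as well. In the CpG ODN library 3 of 4888 cells had at least 5 UMIs of Reg3g (0.0614%, 0.0127% to 0.179%), none of them a member and the highest with 7. In the LPS library 25 of 1277 cells did (1.96%, 1.27% to 2.88%), 14 members and 11 others. Of these others 9 had at least as much Krt5 plus Krt14 as Krt8 plus Krt18, and 7 had a UMI of Lypd2, another gene of the Reg3g kinds. Counted in this way, without the keratin limits, the shares of the 2 libraries had intervals that did not overlap. Reg3g led kinds that were seen only in the LPS library, so this count is a description and no separate support. The limit of 5 UMIs was also applied at unequal depth, with medians of 11077.5 UMIs in the CpG ODN and 22680 in the LPS library. Lymphocytes had a Reg3g UMI in 0.239% of the CpG ODN and 3.66% of the LPS cells.

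The Espn and Prox1 cells had 3312 to 17423 UMIs. Espn (espin, which bundles actin in the microvilli of sensory cells) had 0 to 18 UMIs. Sox2, a transcription factor of sensory progenitors, had 1 to 8 in every cell, and Sox21 1 to 35 in every cell. Sox2 was not particular to this kind, since 123 CpG ODN and 176 LPS cells outside the members had at least 5 UMIs of it. It also had a UMI in 9 of 11 CpG ODN and 7 of 9 LPS mucous acinar-like cells. No cell outside the members reached 5 UMIs of Espn. None of the 9 had an Aqp5 UMI, so these were no gland cells by that marker. Over the kind 6 of 7 markers of taste type III cells, 5 of 12 of Merkel cells and 3 of 10 of taste type II cells were detected, and no single name was given. The 5 Merkel markers were Sox2, Krt20, Chga, Insm1 and Snap25. Of these Snap25 is also a type III marker, with UMIs only in LPS-14, LPS-15 and LPS-17. Atoh1, Pou4f3 and Cck of CpG-11, described below, were not among the 5.

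The LPS cells LPS-14, LPS-15 and LPS-17 shared the markers of type III taste cells, which sense sour stimuli and form synapses. Pkd2l1 had 2, 3 and 3, the proton channel gene Otop1 2, 1 and 2, the synaptic gene Snap25 3, 9 and 17, and the carbonic anhydrase gene Car4 0, 4 and 24. Chga, a granule protein of neuroendocrine cells, had 0, 23 and 66 UMIs, and Ddc, an enzyme of serotonin synthesis, 0, 5 and 9. In none of the CpG ODN cells of this kind was there a UMI of Snap25, Car4, Pkd2l1, Otop1 or Ddc, at 3312 to 11075 UMIs per cell against 13934 to 17423 in these 3 LPS cells. The remaining LPS cell of the kind, LPS-29, had 1 UMI of Pkd2l1 and 2 of Otop1 at a depth of 7248 UMIs.

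Cell CpG-08 carried genes of type II taste cells, which detect sweet, bitter and umami stimuli, with 9 UMIs of Gnat3 (the taste G protein gustducin), 15 of Gng13, 2 of Plcb2, 2 of Pou2f3 and 1 of the sweet receptor gene Tas1r2. Cell CpG-11, the shallowest member with 3312 UMIs, carried genes of Merkel cells, the touch receptors of skin and oral mucosa, with 3 UMIs of Pou4f3, 1 of Atoh1, 5 of Sox2, 2 of Krt20 and 20 of the peptide gene Cck. It also had 500 UMIs of Ccer2, which was at 0 in the other 8 cells of the kind. The remaining cells CpG-09, CpG-10, CpG-17 and LPS-29 had the growth factor gene Ptn (24, 43, 30 and 41 UMIs) and the chemokine gene Cxcl14 (11, 5, 25 and 17), though LPS-17 had the most of both (49 and 48). Prox1 and Shh were seen in 3 of these 4, with up to 10 and 11 UMIs in CpG-17. Ptn was not particular to this kind, since 456 CpG ODN and 294 LPS cells outside the members had at least 5 UMIs of it.

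**Figure D3:**
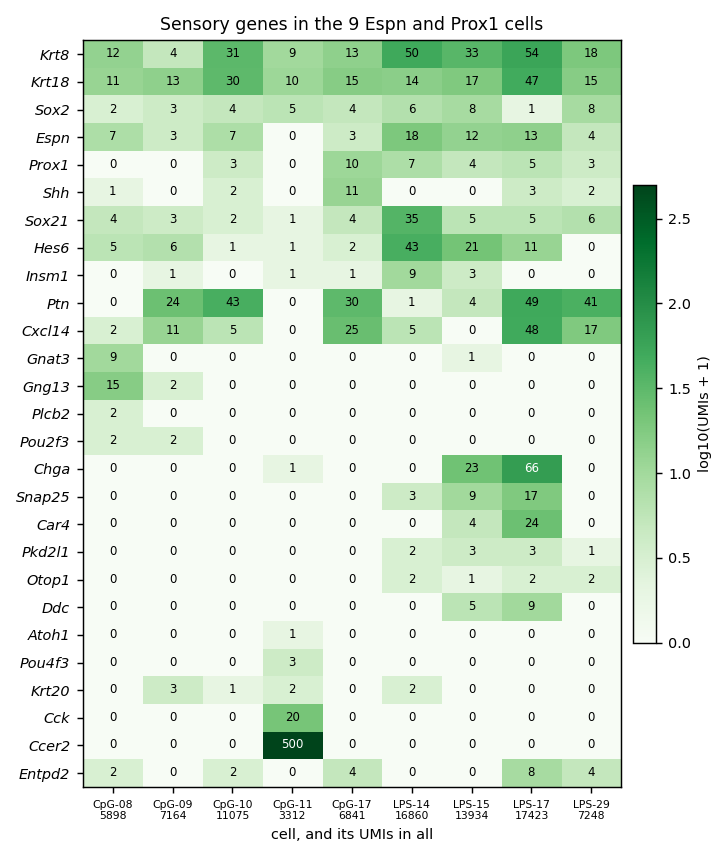
UMIs of sensory and related genes (rows) in each of the 9 Espn and Prox1 cells (columns, with the cell's total UMIs below its name); the colour is log10(UMIs + 1). Snap25, Pkd2l1 and Otop1 meet in LPS-14, LPS-15 and LPS-17, Gnat3 and Gng13 in CpG-08, and Cck, Pou4f3 and Ccer2 in CpG-11.

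The ligands were then set side by side in the mucous acinar-like cells, the kind with enough cells in both libraries. UMIs were summed over the 11 CpG ODN and the 9 LPS cells and 3181 genes with at least 20 UMIs were compared by the ratio of their CPM, CpG ODN over LPS. At least 2-fold higher in the CpG ODN library were 120 genes, 3.77% of those compared, and at least 2-fold higher in the LPS library were 166, or 5.22%. The median log2 ratio over all genes was 0.000155. These shares are the background against which a list of genes is read, and single genes among them were not read as changed. The lists were chosen with earlier results of these data known.

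Interferon-stimulated genes stood higher in the CpG ODN mucous cells. Of 12 such genes with enough UMIs, 8 were at least 2-fold higher in the CpG ODN library and 0 in the LPS library, and their median log2 ratio was 1.45. Irf7, the transcription factor that amplifies type I interferon, had 19 UMIs against 2 (ratio 12.4, 2.99 to 110). Isg15, a ubiquitin-like modifier and a classical interferon target, had 86 against 15 (7.48, 4.29 to 13.9), and Ifit1, an antiviral RNA-binding protein, 63 against 13 (6.32, 3.44 to 12.5). Psmb8 of the immunoproteasome, the transcription factor Stat2, Usp18, Ifi44 and Bst2 were the other 5, with ratios from 2.25 (Bst2) to 5.22 (Psmb8).

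Ifitm3 and Irf1 were nearer to each other in the libraries, with ratios of 1.94 and 1.51, and Oas1a had a ratio of 0.978. Ifi27 went the opposite way, with 48 UMIs in the CpG ODN and 115 in the LPS cells (0.544, 0.380 to 0.769).

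The cells within each library were not alike. In the CpG ODN cells Isg15 had 0, 0, 0, 1, 3, 6, 7, 9, 11, 18 and 31 UMIs, and in the LPS cells it had 0 UMIs in 8 cells and 15 in cell LPS-10. Thus 8 of 11 CpG ODN cells (72.7%, 39.0% to 94.0%) and 1 of 9 LPS cells (11.1%, 0.281% to 48.2%) had a UMI of Isg15. With each cell thinned to 7000 UMIs the shares were 66.4% and 10.6%, with no cell left out. Lymphocytes had an Isg15 UMI in 1.91% (CpG ODN) and 4.88% (LPS).

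Cell LPS-10 held all the LPS UMIs of Isg15, Ifit1 (13), Usp18 (11) and Ifi44 (15). Without CpG-14 alone, Usp18 and Ifi44 had ratios of 1.94 and 1.73. Bst2, which tethers budding viruses to the cell surface, was spread over more cells, with 0, 1, 1, 2, 3, 3, 5, 5, 6, 9 and 15 UMIs in the CpG ODN and 2, 2, 2, 2, 2, 3, 4, 4 and 8 in the LPS cells, and had a ratio of 2.25 (1.40 to 3.69). The cells of the 2 libraries thus overlapped in their Bst2 counts, at a lower median depth in the CpG ODN cells.

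Summed over the whole interferon list, the CpG ODN mucous cells had 424 to 5980 CPM with a median of 3115, and the LPS cells 589 to 3910 with a median of 1157. The ranges overlapped, and 9 of 11 CpG ODN cells lay above the LPS median while 1 of 9 LPS cells lay above the CpG ODN median. Cell CpG-14 held 26.9% of the list's UMIs in its library and LPS-10 held 31.3%. Without both these cells 7 genes of the list had enough UMIs and 4 were at least 2-fold higher in the CpG ODN library. Without the deepest cell of each library, CpG-14 and LPS-24, 3 of 9 were, with a median log2 ratio of 0.69.

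**Figure D4:**
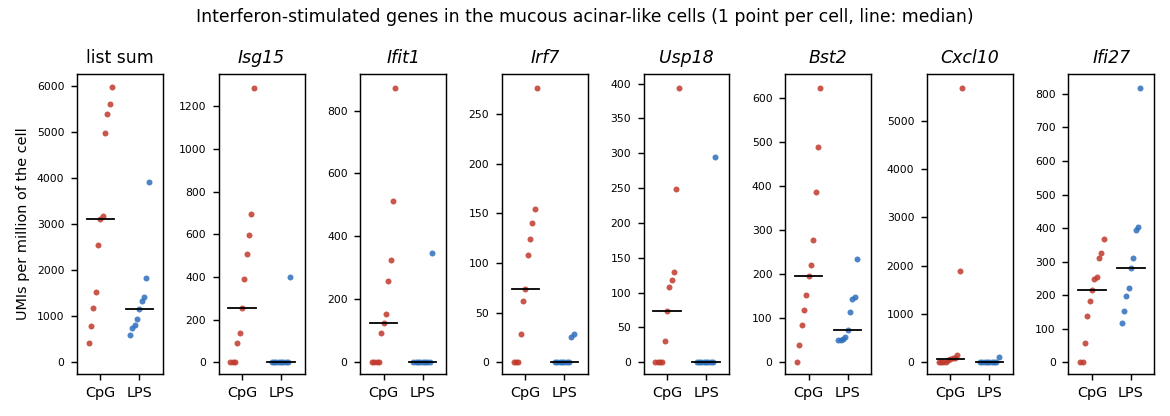
CPM in each cell (vertical axes, each with its own scale) for the sum of the interferon list and for 7 genes in the 11 CpG ODN (red) and 9 LPS (blue) mucous acinar-like cells; each point is a cell and the line is the median. Isg15, Ifit1 and Usp18 lie at 0 in all LPS cells but LPS-10, whereas Ifi27 lies somewhat higher in the LPS cells.

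The list was compared in the remaining cells too. In the other members its CPM was 1295 (1099 to 1517) over 8 CpG ODN cells and 786 (718 to 858) over 25 LPS cells, which are of different kinds. In all cells that were no members it was 403 (398 to 407) and 436 (429 to 443). In those cells Isg15 had 8.86 and 6.96 CPM. The mucous cells, at 3043 CPM (2828 to 3270.5) and 1472 CPM (1342 to 1612), thus stood above the non-members in both libraries. Whether the library difference differed between kinds was not tested.

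The 250 bases before the start of transcription are printed for 3 of the interferon genes and for Cxcl10, from the RefSeq table for GRCm38.p6. All of these hold the motif marked below, which not all genes of the interferon list do. Capitals mark GAAANNGAAA, read on both strands, the core of the element bound by interferon regulatory factors. Overlapping matches run together.
Isg15, chr4:156200819-156201068, minus strand: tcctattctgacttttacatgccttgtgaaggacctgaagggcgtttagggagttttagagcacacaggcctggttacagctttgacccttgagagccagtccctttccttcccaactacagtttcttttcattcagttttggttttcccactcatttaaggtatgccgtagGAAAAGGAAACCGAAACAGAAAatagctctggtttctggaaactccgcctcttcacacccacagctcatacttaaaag
Ifit1, chr19:34640639-34640888, plus strand: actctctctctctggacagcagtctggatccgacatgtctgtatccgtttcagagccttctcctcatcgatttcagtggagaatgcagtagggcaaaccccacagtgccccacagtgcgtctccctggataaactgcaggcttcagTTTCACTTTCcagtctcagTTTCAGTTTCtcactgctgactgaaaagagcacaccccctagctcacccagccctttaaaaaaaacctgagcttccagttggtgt
Bst2, chr8:71537473-71537722, minus strand: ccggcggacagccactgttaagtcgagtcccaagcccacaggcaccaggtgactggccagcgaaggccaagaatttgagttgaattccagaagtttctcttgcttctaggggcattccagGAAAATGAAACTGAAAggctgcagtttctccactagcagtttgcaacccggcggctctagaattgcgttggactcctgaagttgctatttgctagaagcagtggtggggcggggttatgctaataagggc
Cxcl10, chr5:92348890-92349139, minus strand: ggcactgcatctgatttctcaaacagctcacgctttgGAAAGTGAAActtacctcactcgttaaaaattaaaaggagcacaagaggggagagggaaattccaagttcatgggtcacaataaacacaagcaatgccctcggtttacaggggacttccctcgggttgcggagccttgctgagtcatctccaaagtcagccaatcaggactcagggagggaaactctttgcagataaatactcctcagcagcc

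Isg15 held 3 overlapping matches that began 66 to 78 bases before the start, Ifit1 held 2 on the opposite strand and Bst2 2. Of the 12 interferon genes compared, 10 had a promoter in the table and 5 of these held a match, which is 50%. In the same window 3.46% of all 27025 genes listed held a match. Irf7, which had the highest ratio, held none, nor did Ifi44, Irf1, Ifitm3 and Psmb8, and Oas1a, with a ratio of 0.978, held 2. A match is a description of the letters, not a binding site. The 50% describes a list chosen for its link to interferon, and not the state of these cells.

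Chemokine and cytokine genes were sparse in mucous cells, and only 5 had 20 UMIs, of which 2 were at least 2-fold higher in each library. Cxcl10, an interferon-induced chemokine that attracts T cells, had 247 UMIs in the CpG ODN and 4 in the LPS cells (80.6, 31.1 to 298), but 202 of the 247 lay in cell CpG-14 and 35 in CpG-12. Without CpG-14 the ratio was 17.2 (6.27 to 65.8), from 45 against 4 UMIs. The neutrophil chemokine gene Cxcl1 had 79 and 45 UMIs (2.29, 1.57 to 3.38), and 40 of the 79 lay in 1 cell. Cxcl17, a mucosal chemokine, had 2 and 34 UMIs (0.0767, 0.00893 to 0.299), all 34 in 1 LPS cell. Tnf had 9 and 11 (1.07, 0.391 to 2.83). Tgfb1, a cytokine that restrains immune cells, had 6 and 18 (0.435, 0.141 to 1.14), in 4 of 11 and 8 of 9 cells. For Cxcl10, Cxcl1 and Cxcl17, but not for Tnf and Tgfb1, 1 cell held over 50% of the UMIs of the library with the higher CPM.

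The secretory machinery did not follow the interferon genes. Of 13 genes for mucins and their synthesis, 0 were at least 2-fold higher in either library, with a median log2 ratio of 0.039 and a range from -0.65 to 0.55. Of 24 genes of the secretory pathway 1 was higher in the CpG ODN library and 0 in the LPS library (median 0.11). This was Dnajb9, a chaperone cofactor of the endoplasmic reticulum induced by the unfolded protein response, with 58 against 33 UMIs (2.29, 1.47 to 3.63). Xbp1, the transcription factor that drives that response, had 117 against 195 (0.783, 0.617 to 0.989). Water and ion transport (1 and 0 of 12, median -0.018) and host defence secretions (0 and 0 of 6, median 0.16) likewise lay near the median of all genes, as did cell junctions (0 and 1 of 11, median 0.16). With any Odam UMI excluding a cell, which also moved Dcpp cells into the mucous kind, the median of all genes was 0.32 and that of the host defence secretions -3.19.

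Genes of the immediate early response lay mostly lower in the CpG ODN cells, though few by 2-fold. Of 16 such genes 0 were at least 2-fold higher in the CpG ODN library and 2 in the LPS library, with a median log2 ratio of -0.42. The median depended on single cells. Without the LPS mucous cell with the most hemoglobin it was -0.17, and without the deepest cell of each library -0.61. Klf2, a Kruppel-like factor that restrains inflammatory genes, had 3 UMIs in the CpG ODN cells, at most 1 per cell, and 67 in the LPS cells, where 7 of 9 cells had it (0.0584, 0.0117 to 0.178). Klf4 had 68 against 194 (0.457, 0.342 to 0.606). Atf3 (282 and 555 UMIs, 0.663) and Jun (513 and 903, 0.741) were nearer.

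The genes of NF-kB feedback had a median log2 ratio of -0.42 over 6 genes, and Nfkbia, the inhibitor that NF-kB induces, had 102 against 178 UMIs (0.748, 0.580 to 0.959). Bcl3 was the 1 gene of the list that was at least 2-fold higher in the LPS library, with 8 against 23 UMIs (0.454, 0.175 to 1.05). Among 14 epithelial transcription factors 3 were at least 2-fold higher in the LPS library. Hes1, a target of Notch signalling, had 32 against 144 UMIs (0.290, 0.191 to 0.428), with medians per cell of 2 and 17. Foxa3 and Sox21 had ratios of 0.408 and 0.307 from at most 17 UMIs in either library, and 11 of the 17 LPS UMIs of Sox21 lay in 1 cell. Sox9 (103 and 139 UMIs, 0.967), a factor of gland epithelium, and Ehf (91 and 154, 0.771) were closer.

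Of 8 keratins compared, which include Krt8, Krt18 and Krt14 of the selection, 2 were at least 2-fold higher in the CpG ODN library and 1 in the LPS library. Krt6a, a keratin of stressed and healing epithelium, had 36 and 12 UMIs (3.91, 1.99 to 8.26), 18 of the 36 in 1 cell, and Krt76 of the palatal surface 18 and 10 (2.35, 1.03 to 5.69). Krt19 had 5 and 17 UMIs (0.384, 0.111 to 1.08).

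**Figure D5:**
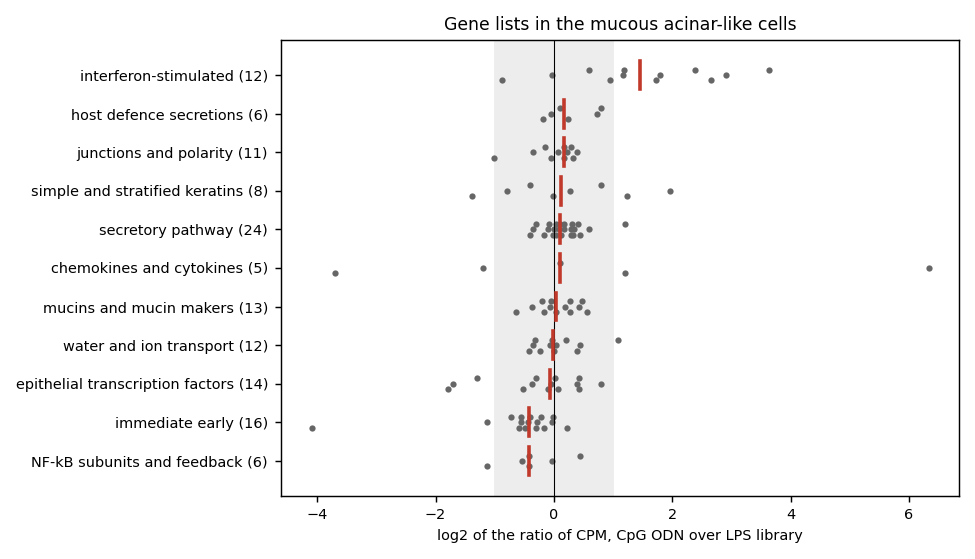
Log2 ratio of CPM, CpG ODN over LPS library (horizontal axis), of each gene (grey points) of 11 lists in the mucous acinar-like cells, with the list's median (red) and the number of genes in brackets; the grey band marks less than 2-fold. The interferon list has a median of 1.45, while the mucin, secretory pathway and transport lists lie about 0.

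Among all genes with at least 50 UMIs of which no single cell held over 50% of a library's counts, the 8 highest ratios belonged to Txnip, Zfp36l1, Ddx24, Dnajb9, Bst2, Mettl1, Spink4 and Creld2. Txnip, which binds thioredoxin and limits glucose uptake, had 49 and 16 UMIs (3.99, 2.23 to 7.53), and Zfp36l1, which promotes decay of AU-rich mRNA, 81 and 38 (2.78, 1.87 to 4.20). The 8 lowest ratios belonged to Klf2, Hes1, Lars2, Por, Pik3r1, Sec24a, H1f0 and St3gal4. St3gal4, a sialyltransferase that caps mucin glycans, had 25 and 80 UMIs (0.408, 0.249 to 0.646), with medians of 2 and 9 per cell, and Por, the reductase that serves cytochromes P450, 11 and 39 (0.368, 0.170 to 0.733).

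The receptors for the ligands themselves were hardly seen in these cells. Over all 53 members Tlr2 had 9 UMIs in 5 cells and Tlr4 14 UMIs in 10 cells. Tlr9 had 0 UMIs, in both libraries. Myd88, the adaptor shared by these receptors, had a UMI in 8 of 19 CpG ODN and 18 of 34 LPS members. At this depth a low level of receptor RNA could not be detected, and no MHC class II gene and only 2 genes of the TLR pathway list reached 20 UMIs in the mucous cells.

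RNA of other cell types was mostly low but not absent. Fibroblast markers had a UMI in 6 of 19 CpG ODN and 13 of 34 LPS members, at most 0.0488% of a cell's UMIs. Schwann cell markers had one in 10 and 23, at most 0.0434%. Suprabasal keratinocyte markers had one in 16 and 33, at most 0.0678%. Basal keratinocyte markers, which include Krt5 and Krt14 of the selection, had one in 16 and 34, at most 0.747%. Markers of T cells had 0 UMIs in all members, those of B and plasma cells a UMI in 2 members and those of endothelium in 2. The endothelial markers include Pecam1 and Cdh5, which the selection limited to 1 UMI, so their low count was partly set by the selection. Myeloid markers had 0 UMIs in the CpG ODN members and were present in 12 LPS members, at most 2.62% of a cell's UMIs. Lyz2 was the only 1 of the 6 myeloid markers detected in any kind, and all of these 12 cells had it. The UMIs were therefore not read as RNA of myeloid cells. Hemoglobin made up 5.04% of the UMIs of the mucous cell LPS-04 and at most 0.0138% in any CpG ODN mucous cell. Without LPS-04, 7 of 12 interferon genes were at least 2-fold higher in the CpG ODN library, with a median log2 ratio of 1.31.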

How the data were processed

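Single-cell RNA-seq counts of 2 libraries were used, with 4 pooled mice each. The deposited count matrices hold UMI counts per gene and barcode, made by the authors with Cell Ranger 4.0.0 per the file headers. The labels also name Seurat, and the genome build was not given in the sources used here. No values were normalized upstream. Some genes are not reported here and were left out of the counts, but not of the clustering and the cell-by-cell classes. Gene positions were taken by Ensembl identifier from GENCODE M21 (GRCm38), which held 32158 of the 32285 identifiers. The selection, the kinds and the gene lists were chosen with earlier results of these data known, and the clustering settings after seeing the cells.

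Members were clustered on log values per 10000 UMIs, 500 variable genes without the host response lists, 10 components, 4 neighbours (the cell included) and Leiden resolution 1.5 (leidenalg 0.10.2, Python 3.11.15). A cluster was called X-like only from fixed markers among its 10 leading genes. A marker counted as detected with a UMI in 20% of a kind's cells and 2-fold the CPM of non-members. UMIs were summed per kind and library, and genes with at least 20 UMIs compared by the ratio of CPM, with exact Poisson, conditional binomial and Clopper-Pearson intervals (scipy 1.17.1). A count of 0 was set to 3 counts. No test was made, since each ligand had 1 library. Named genes were list members with at least 20 UMIs and the 8 highest and 8 lowest ratios among genes with at least 50 UMIs, without mitochondrial, ribosomal, hemoglobin and immunoglobulin genes and those in which 1 cell held over 50% of a library's UMIs. Genes named per kind were the 10 with the largest fold over the other members, or fixed markers. Others (Espn, Lypd2, Cbr2, F3, Coch, Ptn, Ccer2, Gp2, Sbpl) were named after their values were seen. The comparison was tested on simulated data. The alternatives were other gene, keratin and Odam limits, thinning, cell-by-cell classes, Leiden resolutions 1 and 2, means over cells, cells left out and a 50-UMI minimum.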

Additional observations from a re-analysis of the deposited data

How the results depend on the processing

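No paired analysis was possible because the study made only 1 library per ligand. The share of simple epithelial cells stayed within its counting interval under other limits on genes, keratins and Odam. With each cell thinned to 5000 UMIs it was 1.83% in the LPS library (21 of 1146 cells) and 0.324% in the CpG ODN library. The shares of the mucous and of the Espn and Prox1 kinds stayed within their intervals under cell-by-cell classes and Leiden resolutions 1 and 2, and that of the Reg3g kinds under both resolutions. These intervals are wide. Cell by cell, the sensory classes held fewer cells than the 5 CpG ODN and 4 LPS cells of the Espn and Prox1 kind. They held 3 CpG ODN cells (2 Merkel and 1 taste type II) and 2 LPS cells (taste type III). In neither library was a cell classed as an ionocyte. The planned cell-by-cell classes held no Reg3g class and called 17 LPS cells duct. With a respiratory secretory class, 13 LPS members (38.2%) fell in it. At resolution 1 the Dcpp cells joined other kinds, so that 2 CpG ODN cells fell in a Reg3g kind. The classes with a respiratory secretory class were added after seeing the data, as were the fits without the hemoglobin-rich LPS cell and without the cells with most interferon UMIs.

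In mucous cells, the count of genes at least 2-fold higher in the CpG ODN and in the LPS library was 400 and 109 when any Odam UMI excluded a cell. Then 3 LPS and 1 CpG ODN Dcpp cells joined the mucous kind and 1 CpG ODN cell left it, and the cause was not tested. The median log2 ratio of all genes was 0.32 in that setting, that of the immediate early list 0.063, of the mucins 0.74, the secretory pathway 0.42, transport 0.51, junctions 0.52 and host defence secretions -3.19. The counts were 20 and 37 with at least 50 UMIs, where fewer genes were compared. The number of interferon genes at least 2-fold higher was 4 of 10 with at least 20 Krt8 and Krt18 UMIs, 5 of 11 with no limit on Odam, 3 of 9 without the deepest cell of each library, 3 of 6 with at least 50 UMIs and 4 of 7 without the cells with most interferon UMIs. The list's median log2 ratio was between 0.69 and 1.90 under all alternatives. A mean over cells gave 9 of 12 genes. The 53 cells limit every share and ratio to those of these libraries.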

Other observations

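The mucous acinar-like cells also varied in cargo among themselves. Wfdc12, a secreted protease inhibitor, made up 0.0588% to 1.55% of the UMIs of the CpG ODN cells and 0% to 0.739% of the LPS cells. Sbpl, a spermine-binding protein-like gene, had 3211 of its 4684 CpG ODN UMIs in 1 cell. Gp2, a membrane protein of secretory granules that binds bacteria, was steadier, with 0.681% to 1.26% and 0.533% to 0.930%. Dmbt1 had a UMI in 2 of 11 CpG ODN cells and 5 of 9 LPS cells, with 155 of 157 and 99 of 124 UMIs in 1 cell of each library.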
